A study of Mus musculus with 2 samples.

Results

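Wnt7b, Wnt7a and Wnt4 encode secreted signalling proteins of the Wnt family, and the 3 genomic windows around them held 17 of the 15384 peaks of Ehf listed for the mouse corneal epithelium. Members were chosen by position: a peak belongs to a window if its midpoint lies inside it. The windows, in the mm9 build, were chr15:85315000-85515000 for Wnt7b with the stretch upstream of it (200 kb), chr6:91260000-91415000 for Wnt7a (155 kb) and chr4:136780000-136910000 for Wnt4 (130 kb). The Wnt7b window was selected because peaks were known to be dense beside the gene. Peak count, score and spacing come from the same ChIP experiment as that choice, so they are given as a description and none of them was tested.

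Wnt proteins are lipid-modified ligands that bind Frizzled receptors. In the canonical branch of the pathway an LRP co-receptor joins the complex, beta-catenin is stabilised and genes regulated by TCF factors are switched on. Wnt7a and Wnt7b are close paralogs, and in endothelial cells of the brain both act through a receptor complex that holds Gpr124 and Reck. Wnt7a has been linked in earlier work to the identity of the corneal epithelium through Pax6. Wnt4 is known for its part in the development of the kidney and the female reproductive tract. Ehf, also called ESE-3, belongs to the ETS transcription factors, is made in epithelia, and like its relatives recognises DNA with a GGAA core.

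Corneal epithelium was taken from wild-type mice aged 2 to 3 months, and tissue of 15 mice was pooled before fixation. The Ehf ChIP group is 1 library, made from 24 ug of sonicated chromatin with an antibody named ESE-3A (E-15). The input group is 1 library of genomic DNA from the same tissue, with no antibody, and no value of it was analysed here. The labels disagree on the strain (CB6 or C57Bl/6) and do not give the sex of the mice. Pooling leaves no spread between animals. The peak list holds no read counts, so the depth behind each peak is unknown, and a stretch without a peak is one in which nothing passed the authors' threshold. It holds no expression values either, so the tissue label was not checked against marker genes. The authors' score is a number per peak whose scale is not stated; over the whole list its median was 86.2, with quartiles of 66.9 and 125, and 50.01 was the lowest value.

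Gene order was read from a RefSeq table of a later build (GRCm38.p6), from which names and order only were used. Wnt7b lies between the protein-coding genes 7530416G11Rik and Ppara, the latter a nuclear receptor of fatty acid metabolism, and AU022754, a long noncoding RNA, is the next gene of any kind on the Ppara side. Among protein-coding genes, Wnt7a lies between Fbln2, which encodes an extracellular matrix protein, and Chchd4, which encodes a mitochondrial import factor. The nearest protein-coding genes of Wnt4 are Zbtb40, a zinc finger gene, and Cdc42, which encodes a small GTPase of cell polarity. Among genes of any kind, Gm4825 is next to Wnt7b on the 7530416G11Rik side. Likewise, Gm30437 is next to Wnt7a on the Chchd4 side and Gm13005 next to Wnt4 on the Zbtb40 side. No annotation of mm9 was used, so whether a peak falls in an exon, an intron or between genes was not determined, and a window may include parts of neighbouring genes.

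The sequence in front of the gene was at hand for 2 of the 3 genes, Wnt7a and Wnt4, and is shown because it is where an ETS core could be looked for by letter. Each run is the 250 bases before the RefSeq start of the gene (GRCm38.p6), 5′ to 3′ on the strand of the gene, minus for Wnt7a and plus for Wnt4. Capitals mark GGAA and its reverse complement TTCC, the single motif searched, on both strands.
Wnt7a: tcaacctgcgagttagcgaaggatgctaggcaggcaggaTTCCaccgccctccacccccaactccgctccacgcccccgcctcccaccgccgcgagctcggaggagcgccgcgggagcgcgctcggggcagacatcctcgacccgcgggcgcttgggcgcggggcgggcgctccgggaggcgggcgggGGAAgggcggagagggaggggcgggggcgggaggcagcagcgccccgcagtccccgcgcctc
Wnt4: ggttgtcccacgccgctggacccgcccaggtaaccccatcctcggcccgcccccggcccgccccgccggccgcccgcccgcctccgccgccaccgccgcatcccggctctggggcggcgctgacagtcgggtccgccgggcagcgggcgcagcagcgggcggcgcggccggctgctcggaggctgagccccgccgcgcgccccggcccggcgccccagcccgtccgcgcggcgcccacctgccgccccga
The Wnt7a stretch held 1 TTCC, starting 211 bases before the gene, and 1 GGAA, starting 62 bases before it. The Wnt4 stretch held neither. Of 32851 such stretches of 27025 genes, 93.4% held at least 1 of them. Both stretches are rich in G and C (77.6% for Wnt7a and 85.2% for Wnt4, against a median of 52.4%). Among the 773 stretches with at least the G and C content of Wnt7a the share with a core was 71.8%, and among the 47 with at least that of Wnt4 it was 44.7%. These letters are a description, and the peaks could not be placed against them because the builds differ.

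The 3 windows differed in how many peaks they held and in how these scored. The Wnt7b window had many peaks of mostly low score, the Wnt4 window fewer peaks of mostly high score, and the Wnt7a window a single peak. The counts were 12 peaks for Wnt7b (6.0 per 100 kb), 4 for Wnt4 (3.08 per 100 kb) and 1 for Wnt7a (0.645 per 100 kb). The median score was 74.8 for Wnt7b and 236 for Wnt4, and the peak of Wnt7a scored 117. The Wnt4 median rests on 4 peaks and was 170 over the 6 peaks found with bounds 25 kb outwards. Since there is 1 ChIP library, the differences between the windows have no replicate check.

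**Figure D1:**
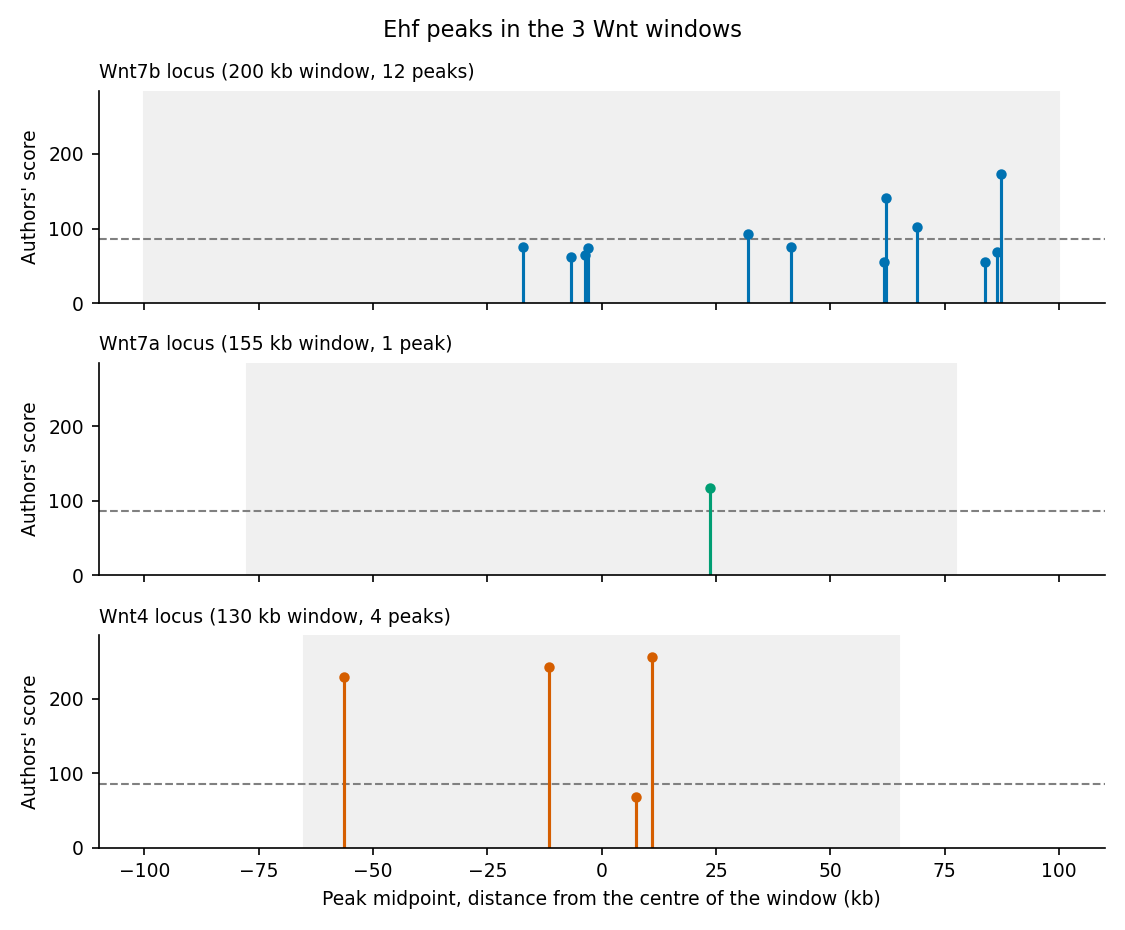
Position (distance of the peak's midpoint from the centre of the window, in kb) and authors' score of each of the 17 peaks. Each stem is 1 peak, grey areas are the 3 windows and the dashed line is the median score of the list, 86.2. Most of the 12 Wnt7b stems end below the line, while 3 of the 4 Wnt4 stems reach above 200.

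Around Wnt7b, the 12 peaks lay within 105 kb, with the midpoint of the first peak 82.8 kb inside the lower bound, and formed 5 groups when peaks up to 10 kb apart were chained. The first was a lone peak, chr15:85397610-85397902, with a score of 75.4. The second group had 3 peaks within 4.32 kb, from 85407976 to 85412294. Their scores were 61.5, 64.0 and 74.3, all below the median of the list. After the longest gap in the window, 34.5 kb, the third group had 2 peaks, at 85446807 to 85447141 and at 85456215 to 85456648. Their scores were 92.1 and 75.3, so that 1 stood above the median of the list and 1 below it.

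The other 6 peaks of the Wnt7b window formed a pair of groups of 3, toward its higher end. In the fourth group, from 85476686 to 85484180, scores were 55.3, 141 and 102. Its first 2 peaks were only 63 bp apart, closer than almost all neighbours in the list: 1.11% of neighbouring pairs had a gap of 63 bp or less. They were unlike in shape, since one was 255 bp wide with the score of 55.3 and the other 157 bp wide with the score of 141. In the fifth group, from 85498637 to 85502600, scores were 55.3, 68.4 and 173. The last of these, chr15:85501819-85502600, was the highest and the widest of the window at 781 bp, and 90.0% of all listed peaks scored lower. Within their own width deciles, the peak of 781 bp scored above 80.4% and the peak of 157 bp above 44.4%.

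Groups of this size are uncommon in the list. Of its 13067 groups and single peaks, 325 (2.49%) had 3 or more peaks, and the Wnt7b window held 3 of them. Several of its peaks touch closely, however. With peaks 1 kb or less apart joined, the 12 peaks became 9 regions, because 3 pairs were joined at gaps of 63, 236 and 482 bp.

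The Wnt7b peaks did not score high for the list. Only 4 of the 12 were at or above its median of 86.2, none reached its 95th percentile of 211, and the lowest, at 55.3, appears on 2 peaks. The chromosome 15 median was 84.6. Scores differ with width in this list, where peaks under 200 bp have a median score of 140.02 and wider ones 78.7. Widths in the Wnt7b window ran from 157 to 781 bp. Just 1 of the 12 peaks was under 200 bp (8.33%, exact 95% binomial interval 0.211 to 38.5%, for counting error only), against 20.1% on chromosome 15. Compared with the other chromosome 15 peaks in the same width decile, the Wnt7b peaks scored above 47.4% of them on average, near the middle.

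Beyond the window the next peaks were unequally far away. On the lower side the next peak was 231 kb from the first member and scored 137. On the higher side it was 38.3 kb from the last member and scored 58.3. The 1 Mb on either side held 18 and 15 peaks, which is 1.65 per 100 kb against 6.0 inside. Over all of chromosome 15 the density was 0.679 per 100 kb, so the flanks were also denser than the chromosome.

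Around Wnt4, the 4 peaks covered 67.7 kb and 3 of them were in the upper tail of score, above at least 96.1% of the list. The first, chr4:136788597-136788752, was 155 bp wide and scored 229. It lay 44.0 kb from the next, a gap shorter than the chromosome 4 median of 59.0 kb. The second, chr4:136832782-136834149, was 1367 bp wide and scored 243. Only 24 listed peaks (0.156%) were that wide. The third, chr4:136852126-136852664, had a width of 538 bp and a score of 68.7, below the median of the list. The fourth, chr4:136855934-136856249, followed 3.27 kb later with a width of 315 bp and the highest score of all 17 members, 256.

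The 3 high peaks of Wnt4 thus had 3 different shapes: narrow, very wide and of usual width. In the whole list 593 peaks (3.85%) scored 229.47 or more. High scores are common among narrow peaks, yet the narrow peak of Wnt4 scored above 89.0% of all peaks under 200 bp. The peak of 315 bp scored above 99.0% of those in its width decile, and the peak of 1367 bp above 94.5% of those in its own. The decile of the 1367 bp peak is broad, since it reaches up to 6834 bp and also holds the 781 bp peak of Wnt7b. Width is therefore only loosely matched there.

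The order of Wnt7b and Wnt4 in peaks per 100 kb changed with a threshold on score. With only peaks at or above the median score, Wnt7b kept 4 peaks and Wnt4 kept 3. Per 100 kb Wnt7b then had 0.867 times the count of Wnt4, against 1.95 times with all peaks. The count of Wnt4 moved with its bounds, to 6 peaks with bounds 25 kb outwards and 3 with bounds 25 kb inwards, and Wnt7b stayed ahead of it in peaks per 100 kb in both cases (1.44 and 1.60 times). The nearest peak outside, chr4:136912935-136913775, lay 3.35 kb beyond the bound with a score of 111. The first member lay 8.67 kb inside the other bound. On the lower side the next peak was 172 kb away and scored 94.6. The 1 Mb on either side held 12 peaks each.

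**Figure D2:**
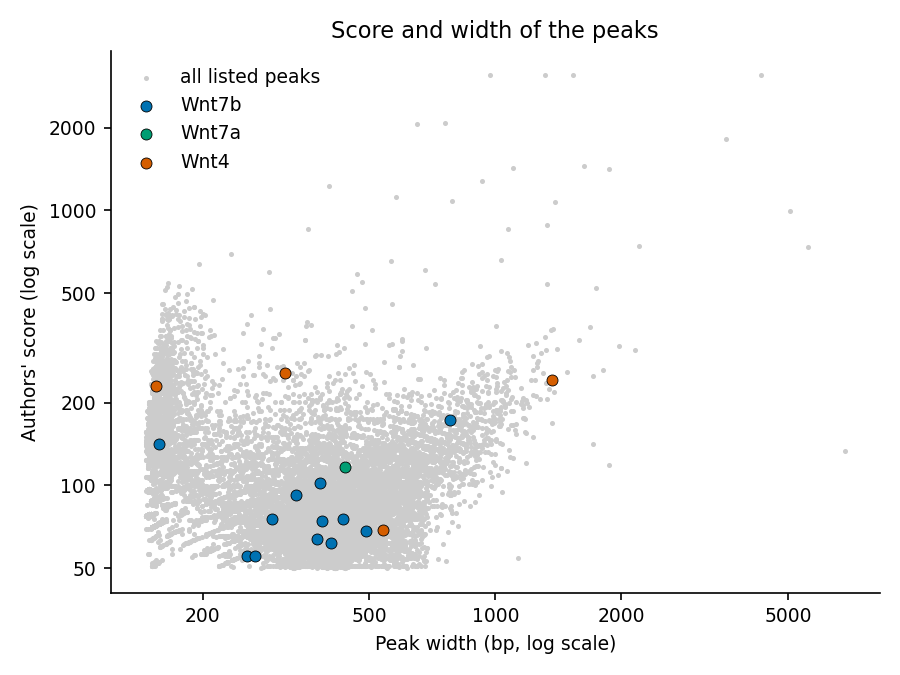
Authors' score against peak width in bp, both on log scales, for all 15384 peaks (grey) and the 17 members (coloured by window). Of the 12 Wnt7b points, 4 stand at or above the median score of 86.2, and the Wnt4 points of 155, 315 and 1367 bp lie at or above 229.

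Around Wnt7a, the single peak was chr6:91360979-91361417, with a width of 438 bp and a score of 117. It scored above 71.3% of all listed peaks and above 88.6% of those in its width decile. Its gaps on both sides were longer than the chromosome 6 median of 84.8 kb. The next peak below was 125 kb away, at 24.6 kb outside the bound, and scored 69.1. The next above was 432 kb away and scored 103. The 1 Mb below the window held 14 peaks and the 1 Mb above it 2.

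Windows of the same length on the same chromosome gave the background for these counts. They were laid every 10 kb between the first and the last peak of the chromosome, without those that overlap the locus. They overlap each other, and unlike the 3 windows their bounds were not drawn with genes or peaks in view, so the shares describe this list. On chromosome 15, 0.00% of 9975 windows of 200 kb held 12 peaks or more. The median was 1 peak and the highest count 11, in a window whose peaks ran from 76002688 to 76199928 with a median score of 75.2, close to that of Wnt7b. Over all 19 autosomes, 154 of 239839 windows (0.0642%) reached 12 peaks, in 14 separate stretches on 7 chromosomes. The highest count among these autosomal windows was 25.

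For Wnt4 the count of 4 was less unusual. On chromosome 4, 4.84% of 15221 windows of 130 kb held 4 peaks or more, with a highest count of 10 between 132562952 and 132676217. For Wnt7a the single peak was ordinary: 45.0% of 14583 windows of 155 kb on chromosome 6 held 1 or more. The highest count there was 10, between 115891417 and 116000310. The Wnt7a density was 1.24 times that of its chromosome, against 4.55 times for Wnt4 and 8.84 times for Wnt7b.

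**Figure D3:**
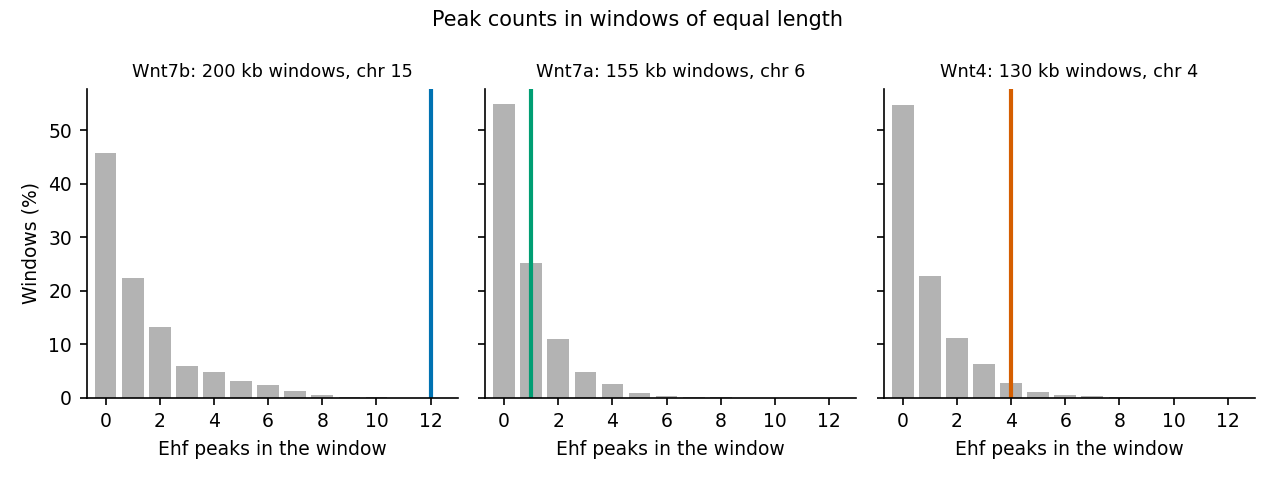
Share of windows of equal length (percent, grey bars) by the number of Ehf peaks they hold, on the chromosome of each gene, with the count of the gene's own window as a coloured line. The line stands at 12 for Wnt7b, to the right of every bar, at 4 for Wnt4 in the upper tail and at 1 for Wnt7a beside the most common counts.

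Scores gave a different order of the loci against the same windows. Of the 5403 windows on chromosome 15 that held a peak, 69.2% had a median score at or above that of Wnt7b. For Wnt4 the share was 1.45% of 6874 windows, and none of the 409 windows with exactly 4 peaks reached its median; the middle value of those 409 was 83.5. For Wnt7a it was 28.9% of 6564 windows. Peaks in the top 5% of score, a limit chosen after the values were seen, numbered 3 in the Wnt4 window and 0 in those of Wnt7b and Wnt7a. Of the windows on chromosome 4, 0.00% held 3 such peaks and the highest count was 2. Over the autosomes 18 of 239986 windows (0.00750%) did. Leaving out peaks under 200 bp left 2 such peaks at Wnt4.

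Gaps were shorter in the window with more peaks. The median gap between neighbouring peaks, edge to edge, was 6.64 kb over the 11 gaps of Wnt7b and 18.0 kb over the 3 gaps of Wnt4, and Wnt7a has none. Of the Wnt7b gaps, 7 were 10 kb or less, and the range was 63 bp to 34.5 kb. The gaps of Wnt4 were 44.0, 18.0 and 3.27 kb. The median gap was 56.6 kb on chromosome 15 and 59.0 kb on chromosome 4, so all 14 gaps were shorter than the median of their own chromosome. Windows with several peaks have short gaps by construction. Among windows with at least 2 peaks, 10.3% had a median gap as short as that of Wnt7b, on chromosome 15, and 37.3% one as short as that of Wnt4, on chromosome 4. Among the 409 windows with 4 peaks the share for Wnt4 was 59.7%, so its spacing was usual for its count. No other window of 200 kb on chromosome 15 held 12 peaks, so the Wnt7b spacing could not be judged for its count.

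**Figure D4:**
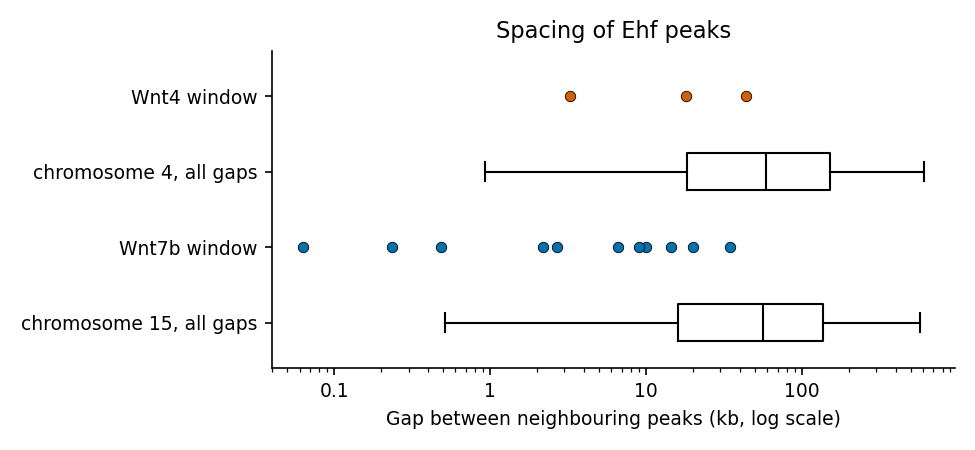
Gaps between neighbouring peaks (kb, log scale) in the Wnt7b and Wnt4 windows (points) and over their whole chromosomes (boxes show the quartiles and the median, whiskers the 5th and 95th percentiles). The Wnt7b gaps run from 0.063 to 34.5 kb and the Wnt4 gaps from 3.27 to 44.0 kb, below the chromosome medians of 56.6 and 59.0 kb.

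By length of DNA covered, the Wnt7b and Wnt4 windows came closer together than by count. Peaks covered 4554 bp of the Wnt7b window (2.28%), 2375 bp of the Wnt4 window (1.83%) and 438 bp of the Wnt7a window (0.283%). The peak of 1367 bp made up most of the covered length at Wnt4. The median width was 378 bp at Wnt7b and 427 bp at Wnt4, against 368 bp in the whole list.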

How the data were processed

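The deposited file is a list of 15384 Ehf peaks with a chromosome, start, end, name and score for each; the score is the authors' own value, as deposited, on a scale that is not stated. The positions are as deposited, in mm9; whether starts count from 0 or 1 is not stated. Bowtie 0.12.7, bedtools 2.11.2 and mm9 appear in the submitters' processing notes without their roles. Peak names in the file begin with MACS_peak, and the caller's settings and any use of the input were not given in the sources. The list comes from 1 library of pooled tissue.

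Computed here were counts by midpoint, edge-to-edge gaps, score percentiles and counts in windows of equal length at 10 kb steps. All peaks of the 3 loci are described, and on each chromosome the window with most peaks is named. Members and lists were chosen with earlier results of these data known. The share of narrow peaks at Wnt7b carries an exact binomial interval; shares of the whole list or a whole chromosome are full counts and carry none. No test was made, for want of replicates. Alternatives were score, width and joining filters, bounds moved by 25 kb and other sets of windows; those for the top 5% of score were added after seeing the data. Other Wnt genes, marker genes and motifs in peaks need an mm9 annotation or sequence and are not analysed here. The code was checked on 20 simulated lists and matched a brute-force count in 20 of 20. Python 3.11.15, numpy 2.4.6, pandas 2.3.3, scipy 1.17.1 and matplotlib 3.10.9 were used.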

Additional observations from a re-analysis of the deposited data

How the results depend on the processing

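Each alternative was applied singly. The order of the loci in peaks per 100 kb (Wnt7b 1.95 times Wnt4, Wnt4 4.77 times Wnt7a) was kept in all but 1 of its settings. With scores at or above the list median, Wnt7b had 4 peaks and fell to 0.867 times Wnt4, its median score became 121 by construction, and the shares of windows with as many peaks or more became 2.07% for Wnt7b, 29.1% for Wnt7a and 2.39% for Wnt4. With peaks 1 kb or less apart joined, that share was 0.281% for Wnt7b and 3.64% for Wnt4. With peaks of 200 bp or more it was 37.9% for Wnt7a and 8.25% for Wnt4. With bounds 25 kb outwards it was 0.0904% for Wnt7b, 26.4% for Wnt7a and 2.46% for Wnt4, and Wnt7a then had 2 peaks with a median score of 93.1. With bounds 25 kb inwards it was 0.0400% for Wnt7b and 35.3% for Wnt7a, and 0.0722% of windows held as many top-scoring peaks as the 2 left at Wnt4. Windows within 10 Mb gave 57.8% for Wnt7a and 9.88% for Wnt4. Windows of all autosomes gave 0.0642%, 49.0% and 4.03% for Wnt7b, Wnt7a and Wnt4. Leaving out empty windows gave 100% for Wnt7a, by construction, and 10.7% for Wnt4. Against peaks of its own width the Wnt7a peak scored above 88.9% of its chromosome, against 70.7% for all widths. The median gap went from 6.64 to 17.6 kb at Wnt7b and from 18.0 to 32.9 kb at Wnt4 with scores at or above the list median. At Wnt4 it was 10.6 kb both without peaks under 200 bp and with bounds inwards. With bounds outwards the Wnt4 count went from 4 to 6 and its median score from 236 to 170. The cause of these shifts was not tested. These gaps, this count and this median score are among 79 values that stayed within their limits. Another 25 values moved outside them and 1, the order of Wnt7b and Wnt4, reversed. The limits were an interval for the median, the range of the locus's own values, a counting interval or 1.5 times the count. With so few peaks the limits for scores, gaps and shares of narrow peaks are wide. The limits for shares of windows are narrow, because their counting interval takes overlapping windows as independent. The unknown read depth limits every count. No paired analysis was possible because neither group has more than 1 library. Settings for ETS motifs in peaks and for other Wnt genes were not run, for want of an mm9 sequence or annotation.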
